A study of Mus musculus with 8 samples.

Results

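The discs large genes Dlg1 to Dlg5, Scrib, Llgl1, Llgl2, Cdc42 and Pard3, 10 genes of the cell polarity machinery, were followed in common myeloid progenitors (CMPs) of young and old mice. They were taken as every non-control probe that carries one of these names, which gave 18 of the 55681 probes and 10 of the 34797 gene names of the array. Dlg5 is in the set because of its values in this same comparison of ages. Its difference, and its call in the fit over all genes, are therefore descriptions that test nothing about Dlg5, and the other genes stand beside it as relatives in the same machinery.

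Total RNA of sorted CMPs, bone marrow progenitors of the myeloid lineages, was labelled with Cy3 and measured on Agilent mouse arrays, with 1 array for each sample. All samples came from untreated wildtype C57BL/6J mice. The sample labels give 2 to 3 months for the 4 young samples (young 3 to young 6) and 22 to 24 months for the 4 old samples (old 2 to old 5), and the series text gives somewhat wider ages. The cells were gated as lineage-negative, c-Kit positive, Sca-1 negative, CD34 positive and low for the Fcγ receptors. The methods speak of 3 mice per age without naming the arrays, and a figure legend of the study says that the mice were analysed individually. With 4 arrays per age, the arrays cannot be matched to these mice.

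Polarity proteins divide a cell into membrane regions of different composition. Scribble, the discs large (Dlg) scaffolds and the lethal giant larvae (Llgl) proteins form the basolateral module of epithelial cells, while Pard3, its Pard6 and atypical protein kinase C partners and the small GTPase Cdc42 mark the apical side or the leading edge. In hematopoietic stem cells, the activity of Cdc42 is known to bear on the polar distribution of proteins and on its loss with age. That activity is a matter of the bound nucleotide and is not read by an RNA measurement.

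Each probe of the array is a single strand of 60 bases. The first 30 bases are shown, 5′ to 3′ with G and C in capitals, for the probes on which the descriptions turn, namely the only Dlg5 probe, the 3 Dlg1 probes, of which 1 differs from the other 2 across arrays, the only Llgl1 probe and the 2 Llgl2 probes.
Dlg5 (A_55_P1966159), minus strand, chr14:24953194-24953253: GaCatGCtGGaCtaaaatGttaCtttGtat
Dlg1 (A_55_P2011712), plus strand, chr16:31771918-31771977: GtCGtCCtGCCCtCCGCaCCaCaGGttGtt
Dlg1 (A_51_P101858), plus strand, chr16:31863262-31863321: aaaCattGtatCCttGatGtGtCtGGaaat
Dlg1 (A_55_P1957900), plus strand, chr16:31871872-31871931: GGatGttGttCtttCttttttCCatGGtCt
Llgl1 (A_55_P2043393), plus strand, chr11:60527620-60527679: GttGttttaatattaaaaGtaCtGattttt
Llgl2 (A_55_P2043382), plus strand, chr11:115716998-115717057: CCCtCttttGtaGtGGGCtGGGttttaaat
Llgl2 (A_51_P348749), plus strand, chr11:115716565-115716836: aaGCaGaatGaCtGGGaCaGCaCCCaGGCt
Coordinates are those of the mouse build mm9 in the deposited scanner files. The second Llgl2 probe spans 272 genomic bases with its 60 bases, so these 60 bases are not contiguous in the genome. Whether the probes lie in coding sequence or in a UTR was not analysed here. Of the 18 probes, 17 name a RefSeq transcript, and each of these accessions carried the same gene symbol in the RefSeq table (GRCm38.p6), while 1 Dlg1 probe names an Ensembl transcript.

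Across the arrays, the 75th percentile of the signal was 352 to 565 scanner units in young and 290 to 518 in old mice, and 55.6% to 63.2% of the probes were well above background. Levels are given as log2 of the background-corrected signal minus that of the array's 75th percentile, so 0 is the 75th percentile. The arrays lay on 2 slides, with 2 young and 2 old arrays on each. The 4 markers of the gate, Kit, Cd34, Fcgr3 and Fcgr2b, were well above background on all 8 arrays. Their differences between old and young were 0.31, -0.21, -0.47 and -0.36 in this order. The ages overlapped at each of them, with adjusted p from 0.879 to 0.998 in limma. Flt3 and Ly6a, which encodes Sca-1, were also measured on all 8 arrays, although Sca-1 positive cells lie outside the gate, and Il7r was well above background on too few arrays to be tested. Over 23155 tested gene names, 48 were called higher in old CMPs (0.207%) and 10 were called lower (0.0432%), where called means a Benjamini-Hochberg adjusted p under 0.05 from limma and a change of at least 1.5-fold.

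Among the 10 polarity genes, 8 had a tested probe, 1 was called higher in old CMPs and 0 were called lower. The 1 called gene was Dlg5, which was chosen from this contrast, so that nothing can be read from this count beside the shares of all genes. The call itself was not stable. With 1 array left out at a time, it was made in 1 of 8 fits, the one without young 6. Each of these fits also rests on fewer arrays, and the reason for the lost calls was not tested. For the 7 other tested genes, the difference between old and young ranged from -0.37 to 0.29 on the log2 scale over 11 probes, and the adjusted p from limma was 0.998 to 0.999. Their intervals were wide. Over these 11 probes the lowest lower bound of a 95% interval was a 2.16-fold fall and the highest upper bound a 1.78-fold rise.

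Dlg5 encodes a large scaffold of the membrane-associated guanylate kinase family and is the most divergent of the Dlg proteins. It was read by a single probe with 35% G and C, which starts at base 7774 of its transcript. Its log2 levels were -5.86, -5.36, -5.85 and -4.81 on young 3 to young 6. They were -3.66, -3.48, -4.12 and -3.42 on old 2 to old 5. The 2 ages did not overlap, and the lowest old value (old 4) was 0.69 above the highest young value (young 6). The probe was well above background on 4 of 4 old and on 0 of 4 young arrays. Over the whole array this pattern was found for 20 of 55681 probes (0.0359%) and the reverse for 14.

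The mean Dlg5 level of the young arrays was -5.47 ± 0.50 (SD, n = 4) and that of the old arrays -3.67 ± 0.32 (SD, n = 4), a difference of 1.81 with a standard error of 0.28. Since the young arrays did not measure the probe above background, no firm fold can be given. For a cautious value, young levels under the lowest level well above background on their array were raised to that level. Old CMPs were then 2.35-fold higher in Dlg5. That level is the lowest of any probe on the array and not a limit for the Dlg5 probe. Young 6 (-4.81) lay above it (-4.98) and was still not well above background, so 2.35-fold is not a strict lower bound. With normexp, a model-based background correction that compresses dim signals, the same value was 1.43-fold, and the difference of means fell to 0.52. The difference was 1.72 within slide 1 and 1.89 within slide 2. In bulk samples of sorted cells, fewer cells with the transcript and less transcript per cell cannot be told apart.

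**Figure D1:**
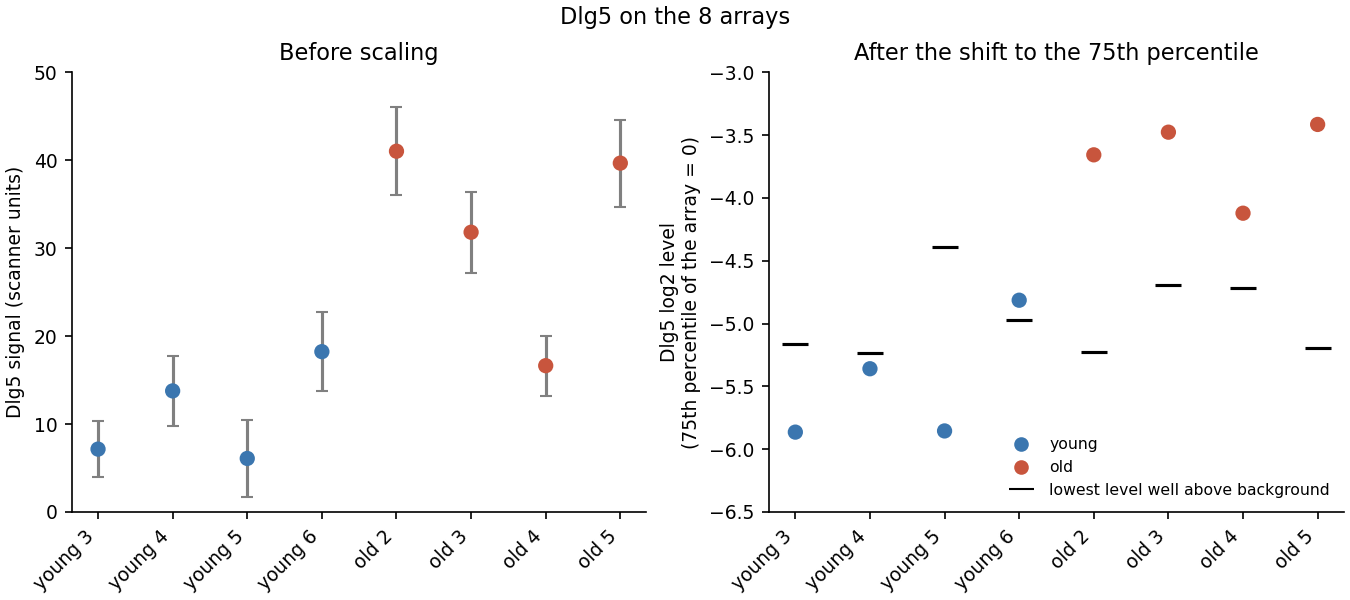
Left, the background-corrected Dlg5 signal of each array in scanner units, with bars for the error that the scanner software gives for a spot. Right, the same as log2 levels relative to the array's 75th percentile, with a line at the lowest level well above background on that array. Before scaling, old 4 (16.6) lies below young 6 (18.2), and after scaling all 4 old arrays lie above all 4 young arrays.

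Before any scaling between arrays, the Dlg5 signal was 7.15, 13.8, 6.09 and 18.2 scanner units on young 3 to young 6. On old 2 to old 5 it was 41.0, 31.8, 16.6 and 39.7 scanner units. Old 2, old 3 and old 5 were above all young arrays, whereas old 4 was below young 6. The scanner software gave each of these signals an error of 3.14 to 5.01 units, so old 4 and young 6 were within their errors of each other. Old 4 had the lowest 75th percentile of the 8 arrays, 290 units, against 513 units on young 6. The separation of the 2 ages at the Dlg5 probe thus held after the shift to the 75th percentile and not before it. The mean difference without scaling was 1.58.

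Dlg1, Dlg2, Dlg3 and Dlg4 are the closely related scaffolds of the family, known from epithelial junctions and, for Dlg4 (PSD-95), from synapses. Dlg1 was read by 3 probes, all well above background on all 8 arrays. The probe that starts at base 269 of an Ensembl transcript (A_55_P2011712) gave 1.59, 1.41, 1.60 and 1.54 on young 3 to young 6 and 1.24, 1.58, 1.74 and 1.08 on old 2 to old 5. The young arrays were close together and lay within the range of the old arrays, and the difference was -0.12 (SE 0.19, 95% interval -0.56 to 0.31).

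The other 2 Dlg1 probes lie in a RefSeq transcript, starting at its bases 2896 and 3206. The first of these (A_51_P101858) gave -0.93, -1.10, -1.87 and -2.05 on young 3 to young 6 and -2.63, -1.82, -0.82 and -1.12 on old 2 to old 5. The second (A_55_P1957900) gave 0.01, 0.01, -0.47 and -0.52 on the young arrays and -0.70, -0.41, 0.18 and 0.02 on the old arrays. At both probes young 3, young 4, old 4 and old 5 were the higher arrays and old 2 was the lowest, and the ages overlapped. The age differences were -0.11 (SE 0.41, 95% interval -1.03 to 0.81) and 0.01 (SE 0.24, 95% interval -0.53 to 0.56). Within slide 1 they were -0.71 and -0.27, and within slide 2 they were 0.49 and 0.30, so that the sign of the difference turned between slides.

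Over the 8 arrays, these 2 Dlg1 probes followed each other with a Pearson r of 0.98 (exact two-sided permutation p = 0.000149) and a Spearman rho of 0.90 (exact permutation p = 0.00456). The adjusted values over the 5 pairs of probes of the same gene were 0.000744 and 0.0228. Without the 2 arrays farthest from the median, r was 0.99 (n = 6). The probe A_55_P2011712 gave r = 0.14 with A_55_P1957900 and r = 0.22 with A_51_P101858 (rho 0.19 and 0.43, exact permutation p = 0.738 and 0.595 for r, adjusted p = 0.738 for both). The 3 Dlg1 probes thus did not give 1 common order of the arrays.

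Dlg3 was read by 1 probe, on the X chromosome. It gave 2.18, 1.501, 1.29 and 1.55 on young 3 to young 6 and 2.31, 2.00, 1.64 and 1.75 on old 2 to old 5. The ages overlapped through young 3, the second highest of the 8 values, and the difference was 0.29 (SE 0.24, 95% interval -0.25 to 0.83). This was the largest positive difference among the 7 other tested genes.

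Dlg4 gave -0.97, -0.58, -0.50 and -0.36 on young 3 to young 6 and -0.42, -0.29, -1.71 and -1.45 on old 2 to old 5. Old 4 and old 5 were the 2 lowest arrays and old 3 the highest, so the old arrays spread on both sides of the young ones. The difference was -0.37 (SE 0.33, 95% interval -1.11 to 0.38), the largest negative one. Both probes of Dlg2 were well above background on none of the 8 arrays, with mean levels from -6.83 to -5.40, and no difference is given for it.

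**Figure D2:**
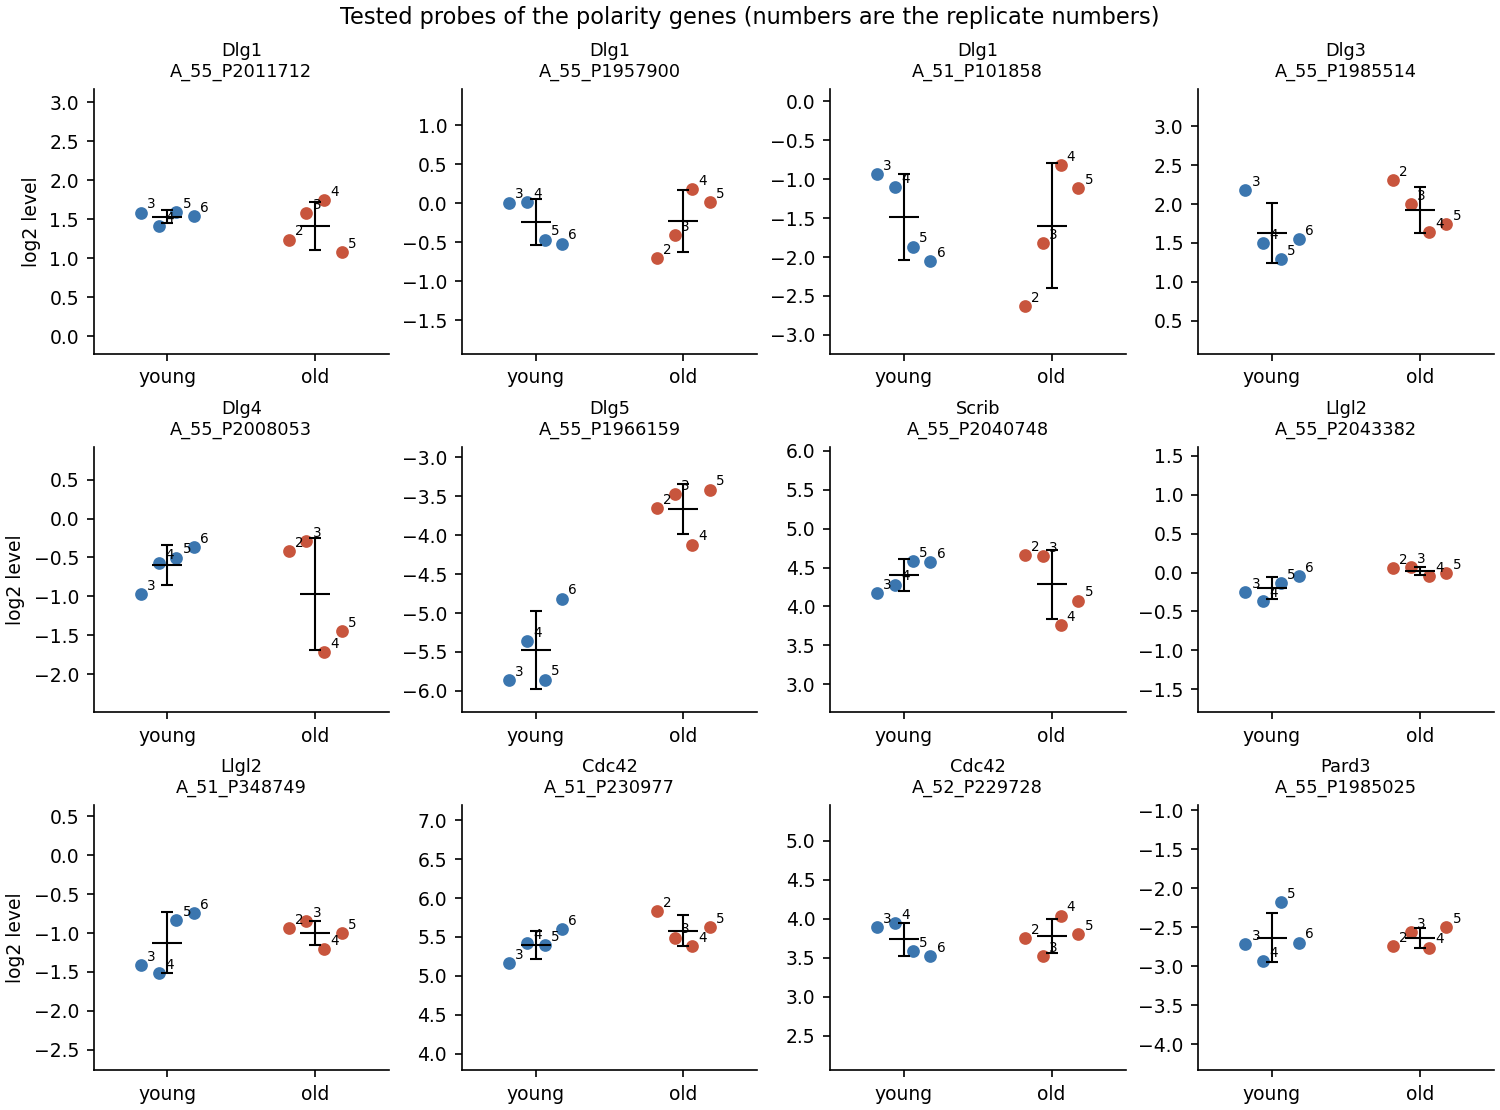
Log2 levels on each array at the 12 tested probes of the polarity genes, relative to the array's 75th percentile, with the mean and SD of each age in black (n = 4) and the replicate number beside each point. All panels span the same height on the log2 scale. The 4 old arrays lie clear of the 4 young arrays at the Dlg5 probe, while at the Dlg1, Dlg4 and Scrib probes the old arrays spread over a wider range than the young ones.

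Scrib encodes Scribble, the leucine-rich repeat scaffold that gives the module its name. It gave 4.17, 4.28, 4.59 and 4.57 on young 3 to young 6 and 4.66, 4.65, 3.76 and 4.08 on old 2 to old 5. Old 2 and old 3 were the highest arrays and old 4 and old 5 the lowest, and the difference was -0.12 (SE 0.24, 95% interval -0.66 to 0.43).

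Llgl2, one of the mammalian lethal giant larvae proteins, was read by 2 probes. The first (A_55_P2043382) gave -0.25, -0.37, -0.14 and -0.05 on young 3 to young 6 and 0.06, 0.07, -0.05 and -0.01 on old 2 to old 5. The ages did not overlap there, but only by the third decimal, since the highest young value was -0.0483 and the lowest old value -0.0474. Non-overlap was found at 4.44% of all tested probes. The difference was 0.22 (SE 0.16, 95% interval -0.14 to 0.58, adjusted p = 0.998 from limma).

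The second Llgl2 probe (A_51_P348749) gave -1.41, -1.51, -0.83 and -0.74 on the young and -0.93, -0.85, -1.21 and -0.999 on the old arrays. The ages overlapped, with the young arrays on both sides of the old ones, and the difference was 0.13 (SE 0.22, 95% interval -0.37 to 0.62). The 2 Llgl2 probes gave r = 0.78 over the 8 arrays (exact permutation p = 0.0239, adjusted p = 0.0596), and rho was 0.43 (exact permutation p = 0.299, adjusted p = 0.374). Without the 2 arrays farthest from the median r was -0.05, so the relation rested on those arrays.

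Llgl1, the other lethal giant larvae gene, was well above background on none of the 8 arrays, with a mean level of -6.89 in young and -6.93 in old CMPs. Its only probe holds 15% G and C, and its visible part shows long runs of A and T. Of the 27 probes of the array with no more G and C than this, 22.2% were well above background on at least 1 array, against 72.5% of all probes. Probes of this base composition thus seldom gave a signal, and whether this bears on Llgl1 was not tested.

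**Figure D3:**
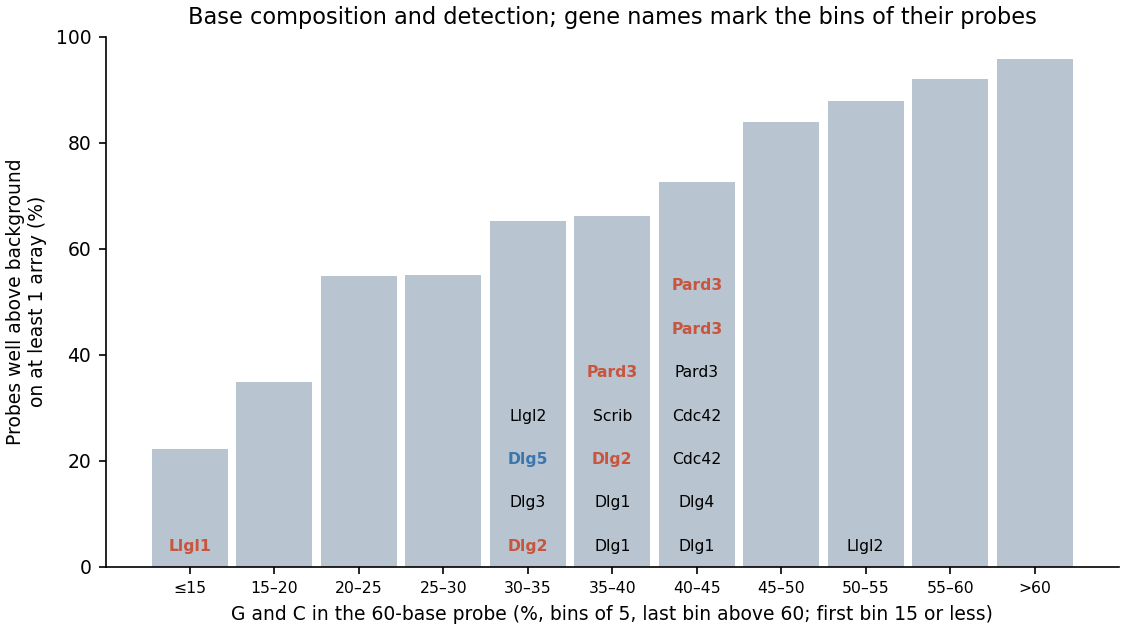
Share of all probes well above background on at least 1 array (vertical axis, %) by the share of G and C in the probe (horizontal axis, %), with the genes written into the bins of their probes. Black names were well above background on all 8 arrays, the blue name (Dlg5) on the 4 old arrays and the red names on none. The share rises from 22.2% in the first bin to 95.8% in the last, and the Llgl1 probe lies in the first bin.

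Cdc42, the GTPase of the Par complex, was read by 2 probes, both well above background on all 8 arrays. The first (A_51_P230977) gave 5.17, 5.42, 5.39 and 5.61 on young 3 to young 6 and 5.84, 5.49, 5.38 and 5.62 on old 2 to old 5. Old 2 was the highest and young 3 the lowest array, the ages overlapped, and the difference was 0.19 (SE 0.18, 95% interval -0.22 to 0.59). On the linear scale this interval runs from 0.860-fold to 1.51-fold.

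The second Cdc42 probe (A_52_P229728) gave 3.89, 3.94, 3.58 and 3.52 on the young and 3.75, 3.52, 4.04 and 3.80 on the old arrays. The highest value was on old 4 and the lowest values were on young 6 and old 3, and the difference was 0.04 (SE 0.19, 95% interval -0.38 to 0.47). The 2 probes did not follow each other (r = -0.34, exact permutation p = 0.420, adjusted p = 0.701, and rho = -0.45, exact permutation p = 0.267, adjusted p = 0.374). Without the 2 arrays farthest from the median r was -0.40.

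Pard3 encodes the PDZ scaffold that assembles the Par complex. Of its 4 probes, 1 was well above background, and on all 8 arrays. It gave -2.72, -2.93, -2.18 and -2.70 on young 3 to young 6 and -2.74, -2.56, -2.76 and -2.49 on old 2 to old 5. The young arrays spanned the old ones, and the difference was -0.01 (SE 0.20, 95% interval -0.45 to 0.44). The other 3 Pard3 probes, which were designed on other transcripts or on other parts of the gene, were well above background on none of the arrays. With the Dlg2 and Llgl1 probes, 6 of the 18 probes were in this state.

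**Figure D4:**
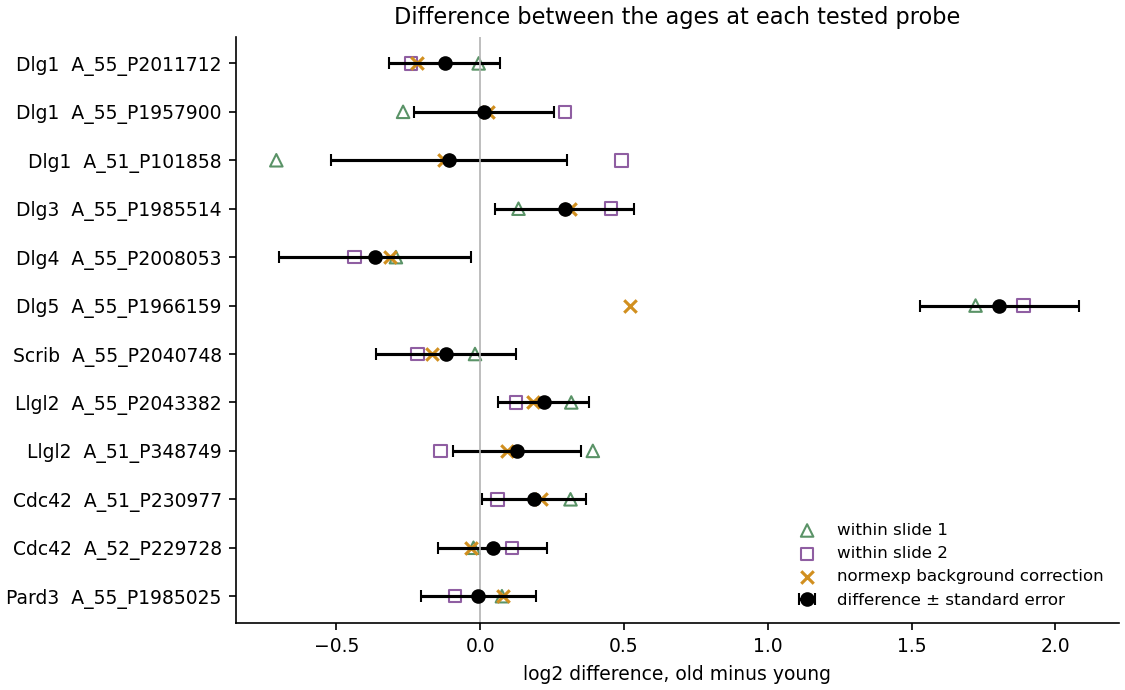
Difference of the log2 level between old and young CMPs at the 12 tested probes, with the standard error from limma as a bar (n = 4 per age). Open symbols give the difference within each slide and the cross gives it after normexp background correction. At the Dlg5 probe the difference is 1.81, 1.72 and 1.89 over all arrays and within the 2 slides, and 0.52 with normexp, and the 11 other probes lie between -0.37 and 0.29.

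The order of the arrays at Scrib, Dlg4 and Dlg1 was shared with many other genes. After the mean of each age was removed, the first principal component over 33432 tested probes held 35.8% of the remaining variance. It was highest on old 4 (0.60) and young 3 (0.42) and lowest on old 2 (-0.53). Scrib (r = -0.95), Dlg4 (-0.92) and the 2 Dlg1 probes A_51_P101858 (0.93) and A_55_P1957900 (0.92) followed it over the 8 arrays with a size of at least 0.90, which is 4 of 12 polarity probes against 5.83% of all tested probes. The 2 Dlg1 probes also followed each other (r = 0.98), so the 4 probes are not 4 separate genes. With the component, r was 0.36 for the third Dlg1 probe and -0.47 for Dlg5. The correlations with the component are a description, since it was computed from the same arrays.

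The genes whose levels over the 8 arrays were most like those of the Dlg5 probe were Myo1d (r = 0.99), Kiss1r (0.98), Rilpl1 (0.98), Hoxc6 (0.98) and Nab2 (0.97). Myo1d encodes an unconventional myosin, Kiss1r the receptor of kisspeptin, Rilpl1 a lysosomal protein-like factor that binds Rab proteins, Hoxc6 a homeobox factor and Nab2 a co-regulator of EGR factors. Spearman's rho was 1, 0.95, 0.98, 0.98 and 0.90 in this order, over 8 arrays. The differences between old and young were 0.91, 3.09, 0.94, 2.10 and 0.45, of which those of Kiss1r and Hoxc6 rest in part on values at background, since these probes were well above it on 2 and 3 of the 4 young arrays. All of these genes were picked out of the tested probes by likeness to Dlg5, so the split between the ages is part of the likeness.

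Besides these 10 genes, 7 lists held 114 genes of the wider machinery, all of them on the array and 97 of them tested. In limma, 0 of the 97 were called in either direction. At an unadjusted p under 0.05, 10 of 97 (10.3%) passed, 7 higher and 3 lower in old CMPs, against 6.62% of all gene names. At p under 0.05, the methods' t-test gave 10 without adjustment, against 5.97% of all gene names by the same test, and 0 after it. The median difference over the 97 genes was -0.03, beside -0.01 over all gene names, and 42 of the 97 (43.3%) lay above 0, beside 47.6% of all gene names.

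Of the Par complex and its kinases, 12 of 15 genes were tested, 0 were called and the median was -0.05. At the brightest tested probe of each gene, the largest differences were -0.20 (SE 0.19) for Prkci, the atypical protein kinase C iota, and -0.16 (SE 0.19) for Mark3, a kinase of the PAR-1 group. A dimmer tested probe of Cab39l gave 0.35, where its brightest gave 0.05. Of the Crumbs complex, the apical counterpart of the Scribble module, 3 of 9 genes were tested and 0 called. The differences were -0.46 (SE 0.38) for Mpp5, which encodes PALS1, and 0.28 (SE 0.18) for the brightest probe of Inadl, which encodes PATJ. Over the 4 tested Inadl probes they ranged from 0.05 to 0.92. The 3 Crumbs genes themselves, Crb1, Crb2 and Crb3, were not well above background on enough arrays to be tested. At the brightest probes of Prkci, Mark3, Mpp5 and Inadl, the adjusted p from limma was 0.985 to 0.998.

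Of the other membrane-associated guanylate kinases and Dlg partners, 15 of 18 were tested and 0 called, with a median of -0.08. Tjp1, which encodes the tight junction scaffold ZO-1, averaged -1.499 ± 0.60 (SD, n = 4) on the young arrays and -0.73 ± 0.23 (SD, n = 4) on the old ones, a difference of 0.77 (SE 0.29, adjusted p = 0.617 from limma). The difference was 0.21 within slide 1 and 1.33 within slide 2. Magi2, a scaffold with inverted domain order, differed by -0.64 (SE 0.35, adjusted p = 0.938 from limma).

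Core planar cell polarity genes, which orient cells within a sheet, counted 14 tested of 16 and 0 called, with a median of -0.09. Vangl1, a 4-pass membrane protein of this pathway, gave -2.15, -1.52, -1.92 and -1.74 on young 3 to young 6 and -0.71, -0.65, -0.84 and -0.90 on old 2 to old 5. The old arrays lay above the young ones by 0.62 or more, and the difference was 1.06 (SE 0.19, adjusted p = 0.0805 from limma), with 1.06 within either slide. The second Vangl1 probe gave 0.44. Celsr3, a cadherin receptor of the same pathway, gave -0.999, -0.67, -0.78 and -0.96 on the young and -1.22, -1.58, -2.76 and -2.11 on the old arrays. The old arrays were all below the young ones, and the difference was -1.07 (SE 0.31, adjusted p = 0.346 from limma).

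Regulators of Cdc42, the exchange factors, GTPase-activating proteins and dissociation inhibitors, had 24 of 25 genes tested and 0 called. Their median was -0.06, with 6 genes above 0 and 18 below. At the brightest tested probe of each gene, the largest differences were -0.77 (SE 0.37, adjusted p = 0.841 from limma) for the exchange factor Dock11 and -0.67 (SE 0.23, adjusted p = 0.522 from limma) for the GTPase-activating protein Arhgap31. Dimmer tested probes of Fgd4 and Arhgef7 gave larger ones, -1.08 and -0.83, where the brightest probes gave -0.36 and -0.03. The Dock11 level spread more over the old than over the young arrays (SD 0.79 and 0.34, n = 4 each), from -0.12 on old 2 to 1.62 on old 5.

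Effectors of Cdc42 had 22 of 24 genes tested and 0 called, with a median of 0.10, 16 genes above 0 and 6 below. Cdc42ep5, a member of the BORG family that binds Cdc42 and septins, gave -2.56, -3.37, -2.18 and -2.73 on young 3 to young 6 and -1.05, -1.42, -1.52 and -1.26 on old 2 to old 5. The kinase Pak6 gave -2.21, -1.91, -1.75 and -1.91 on the young and -1.13, -1.14, -1.16 and -1.01 on the old arrays. At both genes all old arrays lay above all young ones. The difference was 1.40 (SE 0.26, adjusted p = 0.0979 from limma) for Cdc42ep5 and 0.84 (SE 0.17, adjusted p = 0.124 from limma) for Pak6, so neither passed the threshold.

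Of the proteins known as partners of Dlg5, 7 of 7 genes were tested and 0 called, with a median of 0.11. Sorbs3, which encodes the adaptor vinexin, differed by 0.70 (SE 0.23, adjusted p = 0.481 from limma) with overlapping ages, and Ctnnb1, which encodes beta-catenin, by 0.23 (SE 0.19, adjusted p = 0.998 from limma). Under normexp and with array weights, 2 genes of the 7 lists were called, Vangl1 and Cdc42ep5 in both cases.

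**Figure D5:**
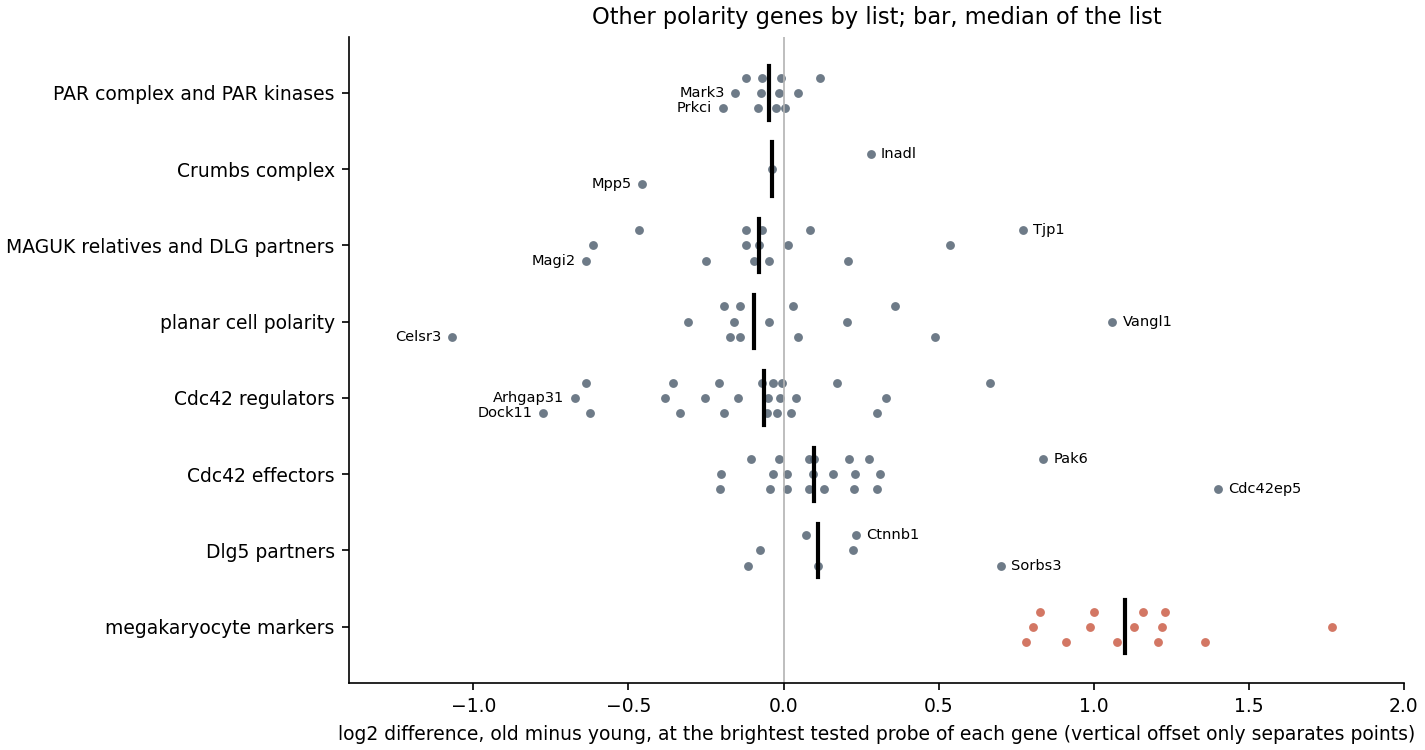
Difference of the log2 level between old and young CMPs for each tested gene of the 7 polarity lists and of the megakaryocyte markers, at the brightest tested probe of each gene, with a bar at the median of the list. The medians of the polarity lists lie between -0.09 and 0.11 and that of the megakaryocyte markers at 1.10.

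The directions of the lists moved with the scaling. A shift to the median in place of the 75th percentile moved the median of all gene names from -0.01 to 0.10, and leaving out any scaling moved it to -0.25. With the latter, the medians of the Cdc42 effectors and of the Dlg5 partners were -0.13 and -0.12, below 0 and above that of all gene names.

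Markers of other cell types were read on the same arrays. Of the 14 megakaryocyte markers, 1 was called higher in old CMPs, Gp9 (2.31-fold, adjusted p = 0.0327 from limma), a subunit of the platelet von Willebrand factor receptor. The others did not pass the test, among them Pf4, the brightest (1.36, SE 0.28, adjusted p = 0.130), and Gp6 (0.78, adjusted p = 0.761). The differences of the 14 markers were all above 0, from 0.78 to 1.77, with a median of 1.10. The log2 of their summed level was 6.65 to 7.65 in young and 8.17 to 8.58 in old CMPs, without overlap, and each of the 14 was well above background on at least 4 arrays.

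Of the hematopoietic stem cell markers, 9 of 10 were tested and 0 called, with a median difference of 0.44. Of the 9, 6 lay above 0 and 3 below, namely Procr (-0.30), Mllt3 (-0.14) and Fgd5 (-0.05). The summed level of the list was 4.97 to 5.42 in young and 5.61 to 5.93 in old CMPs. This sum was led by Gfi1b (0.57) and Meis1 (0.65). The median level of the list on each array overlapped between the ages, with -0.95 to -0.07 in young and -0.94 to -0.34 in old CMPs. Of the granulocyte and monocyte markers, 10 of 12 were tested and 0 called, with a median of -0.53, and their sum was 9.76 to 10.19 in young and 9.25 to 9.53 in old CMPs. Epithelial markers, the cells in which these polarity proteins are best known, had 7 of 10 tested, 0 called and a median of 0.09. Their sum was 3.12 to 3.57 in young and 3.59 to 4.23 in old CMPs and was led by Krt18 (0.55, SE 0.22, adjusted p = 0.651 from limma). The largest difference in this list was that of Epcam (1.24, SE 0.27, adjusted p = 0.161 from limma), whose old arrays lay above the young ones. Epcam was well above background on 2 of 4 young and 4 of 4 old arrays. Of the 7 tested markers, 4 lay above 0 and 3 below, namely Cdh1 (-0.40), Esrp1 (-0.16) and Cldn4 (-0.11). Cldn3 was well above background on none of the arrays.

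The endothelial and stromal markers had a median of 0.37 (8 of 12 tested), the lymphoid markers -0.22 (7 of 12) and the erythroid markers -0.01 (9 of 10), with 0 called in each list. Their summed levels overlapped between the ages. For the endothelial and stromal list, the median level of the genes on each array did not overlap. It was -0.26 to 0.41 in young and 0.50 to 1.05 in old CMPs. The median difference of this list was 0.11 without young 3, 0.64 without old 4 and 0.09 without old 5. In this list Esam (1.23), Col1a2 (1.22) and Emcn (0.96) were without overlap between the ages, with adjusted p from 0.161 to 0.187 in limma. Non-overlap was found at 4.44% of all tested probes. Of the 8 tested markers, 5 lay above 0 and 3 below. Those below were Cxcl12 (-0.41), Lepr (-0.28) and Kdr (-0.05), the brightest of the list, whose other probe gave 0.86. Ly6a, whose product the gate keeps out, differed by -0.73 (SE 0.23, adjusted p = 0.414 from limma) with all old arrays below the young ones. Flt3, on which the stated gate does not select, differed by -0.62 (SE 0.30, adjusted p = 0.868 from limma), and neither gene was called. The part of any of these cell types in the Dlg5 signal was not tested.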

How the data were processed

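The deposited scanner files hold, per the file headers, the background-subtracted intensity of each of 62976 spots, which the authors obtained with Agilent Feature Extraction 10.7.3.1. A second file, with log2 values that the authors had floored, scaled by the 75th percentile and centred, was used as an alternative. Columns of other samples numbered 0.

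From the intensities of 59305 non-control spots, log2 signals minus the array's 75th percentile were computed, outlier-flagged spots were dropped, and replicate spots of a probe were averaged. Probes well above background on at least 4 of 8 arrays were tested, 33472 probes of 23155 gene names, with limma 3.58.1 (lmFit and eBayes) in R 4.3.3 with version 1.17.8 of data.table, old against young without covariates. A gene was called at an adjusted p under 0.05 (Benjamini-Hochberg) and a change of 1.5-fold or more, and lists used the brightest tested probe of each gene. The limma fit was first tested on simulated data with known changes. Arrays have no sequencing depth, and precision here is set by the number of arrays and by how far a signal stands above background. No label says that the 4 samples of an age are separate animals, so p-values measure the spread between these samples.

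The members and lists were chosen with earlier results of these data known. Named were all 10 polarity genes, from each polarity list the called genes and the 2 with the largest difference, the 5 genes most like Dlg5, and of the markers the brightest and the called ones. Other marker genes, Crumbs genes and Cldn3 were named after their values were seen. The alternatives were quantile normalization, normexp (offset 50), the median as the scaling point, the authors' log2 table, 2 other filters (none, or all 8 arrays), array weights, the methods' t-test, a block for slide or for replicate number, each array left out in turn, and no scaling, which was added after the values were seen. Replicate numbers were not taken as pairs in the analysis reported.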

Additional observations from a re-analysis of the deposited data

How the results depend on the processing

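Dlg5 was picked for its rise on these arrays, so its direction and calls under other settings of the same values give no support to it. The size of its difference was 0.52 with normexp, and leaving out 1 array at a time gave 1.68 to 2.03. The number of polarity genes called was 0 with normexp, quantile normalization, no filter, the filter on all 8 arrays, the adjusted t-test, the replicate block, the slide as a block and no scaling. Without 1 array it was 0 to 1, as Dlg5 kept its call only without young 6 and lost it without young 3, young 4, young 5 or any single old array. The filter on all 8 arrays removes Dlg5, so it has no value there. Of 220 values of the other polarity genes under alternatives, 215 moved by less than the spread between replicates and 181 kept their sign, and none of these genes was called in any of them.

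The count of genes of the 7 lists called, 0 in the analysis reported, was 2 with normexp, 2 with array weights, 9 with the unadjusted t-test and 0 to 0 without 1 array. Of all genes, 48 higher and 10 lower became 75 and 21 with normexp, 24 and 2 without a filter, 590 and 359 with the unadjusted and 0 and 0 with the adjusted t-test, 79 and 29 with array weights. The count of lower genes was 3 with quantile normalization, 5 with the shift to the median, 6 with the filter on all 8 arrays, 4 with the slide as a block and 6 with the series table, and that of higher genes was 23 without scaling. Without 1 array the counts were 22 to 37 higher and 2 to 6 lower, over the probes tested with all arrays. The cause of these changes was not tested.

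With the replicate number as a block, which leaves out the numbers without a partner, 12 genes were called higher and 1 lower, and the Dlg5 difference was 2.02. Same-numbered arrays did not deviate together from the mean of their age (r = -0.09, -0.14 and 0.15). With 1 array of each age per number, this cannot decide whether the numbers pair the samples. Of the 36 sets of 4 arrays checked for an outlying array at the polarity probes, 0 passed the critical value of Dixon's test at 95%.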
